A study of Mus musculus with 8 samples.

Results

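The 35 genes described here encode the machinery of autophagy and of mitophagy, and they were read out in peritoneal neutrophils that differed in density and in the histamine H2 receptor (H2R). They were taken by symbol from 49315 mouse Ensembl gene identifiers, and fall by role into 14 initiation genes, 13 conjugation genes and 8 receptor genes. RNA sequencing covered 8 libraries in 4 groups of 2: H2R-deficient low-density, H2R-deficient high-density, wild-type low-density and wild-type high-density neutrophils. All mice were C57BL/6, an inbred strain, aged 2 months, and the cells were drawn into the peritoneum with casein, a milk protein. No group was left without casein. Nothing in the labels ties a library to an animal of its own, so the p-values below are about the spread between libraries, which may be technical. The labels also do not say how the receptor gene was disrupted. These are bulk samples, in which fewer cells of a type and less RNA per cell cannot be told apart.

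Autophagy encloses cytoplasm in a double membrane, the autophagosome, which then fuses with lysosomes. A kinase complex (ULK) and a lipid kinase complex (class III PI3K) start the membrane, 2 ubiquitin-like conjugation systems attach ATG8-family proteins to its lipid, and receptors bind those proteins and the cargo. In mitophagy the cargo is a mitochondrion. Neutrophils hold few mitochondria, and autophagy has been tied in mice to neutrophil differentiation and degranulation.

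Each library held 19862716 to 24199215 counts assigned to genes, and at that depth a count of 0 allows up to 0.124 to 0.151 CPM (counts scaled to a common library size; floor of 3 counts), for counting error only. Hrh2, which encodes H2R, had 435 and 215 counts in the H2R-deficient low-density libraries and 599 and 275 in the H2R-deficient high-density libraries. It had 556 and 830 counts in the wild-type low-density libraries and 2003 and 700 in the wild-type high-density libraries. Hrh2 was thus detected in every library, and the genotype differences of -1.48 ± 0.55 (log2 ± SE) at low density and -1.60 ± 0.55 at high density were not called by edgeR (adjusted p = 0.196 and 0.192). All 10 mature neutrophil markers were above the floor of 3 counts in each library. Their summed level was 29300 to 38600 CPM over all gene counts in H2R-deficient low-density libraries, 57400 to 58000 in H2R-deficient high-density, 41700 to 52700 in wild-type low-density and 55700 to 59000 in wild-type high-density libraries. The 8 B cell markers summed to 883 to 993 CPM in H2R-deficient low-density, 26.9 to 39.6 in H2R-deficient high-density, 158 to 386 in wild-type low-density and 32.1 to 38.3 in wild-type high-density libraries. The 8 dendritic cell markers summed to 720 to 956 CPM in H2R-deficient low-density, 8.16 to 11.7 in H2R-deficient high-density, 236 to 572 in wild-type low-density and 7.10 to 26.2 in wild-type high-density libraries. Over both genotypes the 6 markers of dividing cells summed to 183 to 431 CPM in low-density and 78.3 to 118 in high-density libraries, and the 6 erythroid markers to 0.165 to 1.66 CPM in low-density and 21.6 to 183 in high-density libraries. The 8 macrophage markers summed to 240 to 534 CPM over all libraries, and by TMM 5 of them were called higher and 1 lower in H2R-deficient low-density than high-density cells (median log2 difference 1.19), against 0 called in wild-type cells (median 0.19). The 8 T and NK cell markers summed to 16.8 to 19.9 CPM in low-density and 2.81 to 9.56 in high-density libraries. Eosinophil and mast cell markers reached at most 89.5 and 15.0 CPM, with the eosinophil gene Epx at 0 in 7 of 8 libraries. None of the B cell, dendritic cell or dividing cell markers was at 0 in any library. The B cell, dendritic cell, T and NK cell, dividing cell and erythroid sums over all gene counts therefore differed with density in both genotypes. Macrophage sums over all gene counts overlapped between densities in each genotype. Over TMM-scaled library sizes, H2R-deficient T and NK cell sums overlapped (11.2 and 14.8 CPM at low, 4.67 and 12.9 at high density). Macrophage sums were then lower at low density without overlap, with 305 and 251 against 503 and 323 CPM in H2R-deficient cells. In wild-type cells they were 413 and 391 against 686 and 567 CPM. Eosinophil sums were higher at low density in H2R-deficient and lower in wild-type cells, and mast cell sums overlapped in wild-type cells. The part of all these markers in the results below was not tested.

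In H2R-deficient neutrophils, most autophagy genes stood at lower levels in low-density than in high-density cells when libraries were scaled by TMM, a method that centres the bulk of genes. Of the 35 members, all of which passed the filter on low counts, 20 fell and 3 rose in low-density relative to high-density cells (edgeR quasi-likelihood test, adjusted p under 0.05, "called" below). Over all 14909 genes tested, 23.9% fell and 30.0% rose. In wild-type neutrophils 8 members fell and 0 rose in low-density relative to high-density cells, where 4.15% of all genes fell and 8.51% rose. There 17 members had an unadjusted p under 0.05. Such unadjusted counts, here and below, are given without the share of all genes and are not a result about the members. DESeq2 and limma-voom also called 0 members higher in wild-type cells, beside 1291 and 970 of all 14909 genes. The 7 genes that fell in both genotypes, which are 7 of the 20 in H2R-deficient and 7 of the 8 in wild-type cells, were Rb1cc1, Atg3, Map1lc3a, Map1lc3b, Gabarap, Gabarapl2 and Optn. The share of all genes that fell in both genotypes is not given here, so this overlap is not a result about the members. Pink1 was called in wild-type cells alone, and 11 members were called in neither genotype.

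The direction of 11 of the 20 falls in H2R-deficient cells depended on how libraries were scaled. TMM factors were 1.11 to 1.49 in low-density and 0.742 to 0.808 in high-density libraries. Scaling by total counts instead moved the median log2 difference of all genes, low minus high density, to 0.999 in place of 0.10 in H2R-deficient cells and to 0.67 in place of 0.10 in wild-type cells. By total counts, 1 member (Atg9a) fell and 11 rose in H2R-deficient cells, beside 2.61% and 51.6% of all genes, and 0 fell and 5 rose in wild-type cells, beside 0.832% and 32.3%, with 7 members there at an unadjusted p under 0.05. The 11 that rose were Atg13, Pik3c3, Pik3r4, Atg14, Wipi2, Atg5, Atg10, Gabarapl1, Calcoco1, Pink1 and Fundc1, and the 5 in wild-type cells were Atg13, Pik3c3, Pik3r4, Atg14 and Atg4b. Of the 20 TMM falls in H2R-deficient cells, 11 had a positive and 9 a negative log2 difference by total counts, while all 8 wild-type falls stayed negative in sign and lost their call. A change of scaling shifts all genes nearly alike, so the distance to the all-gene median is given once: by TMM the members' median log2 difference lay 0.79 below it in H2R-deficient and 0.43 below it in wild-type cells, with 29 of 35 members under it in each genotype. The mature neutrophil markers lay lower still, with a median of -1.66 in H2R-deficient and -0.86 in wild-type cells by TMM, against -0.69 and -0.34 for the members. By total counts the neutrophil markers' medians were -0.76 and -0.30, against 0.22 and 0.23 for the members. Without the first H2R-deficient low-density library 14 members were called in that genotype, and the 8 wild-type calls became 0 in a fit of wild-type libraries only, and 0 to 5 when 1 of the 8 libraries was left out. In H2R-deficient cells the TMM calls of Rb1cc1, Atg9a, Becn1, Atg14, Wdfy3, Atg3, Atg7, Map1lc3b, Gabarap, Gabarapl2, Optn and Bnip3 held whichever library was left out. Of these genes only Atg9a and Atg14 were called by total counts. The share of all genes whose calls held in this way is not given here, so the list is not a result about the members.

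**Figure D1:**
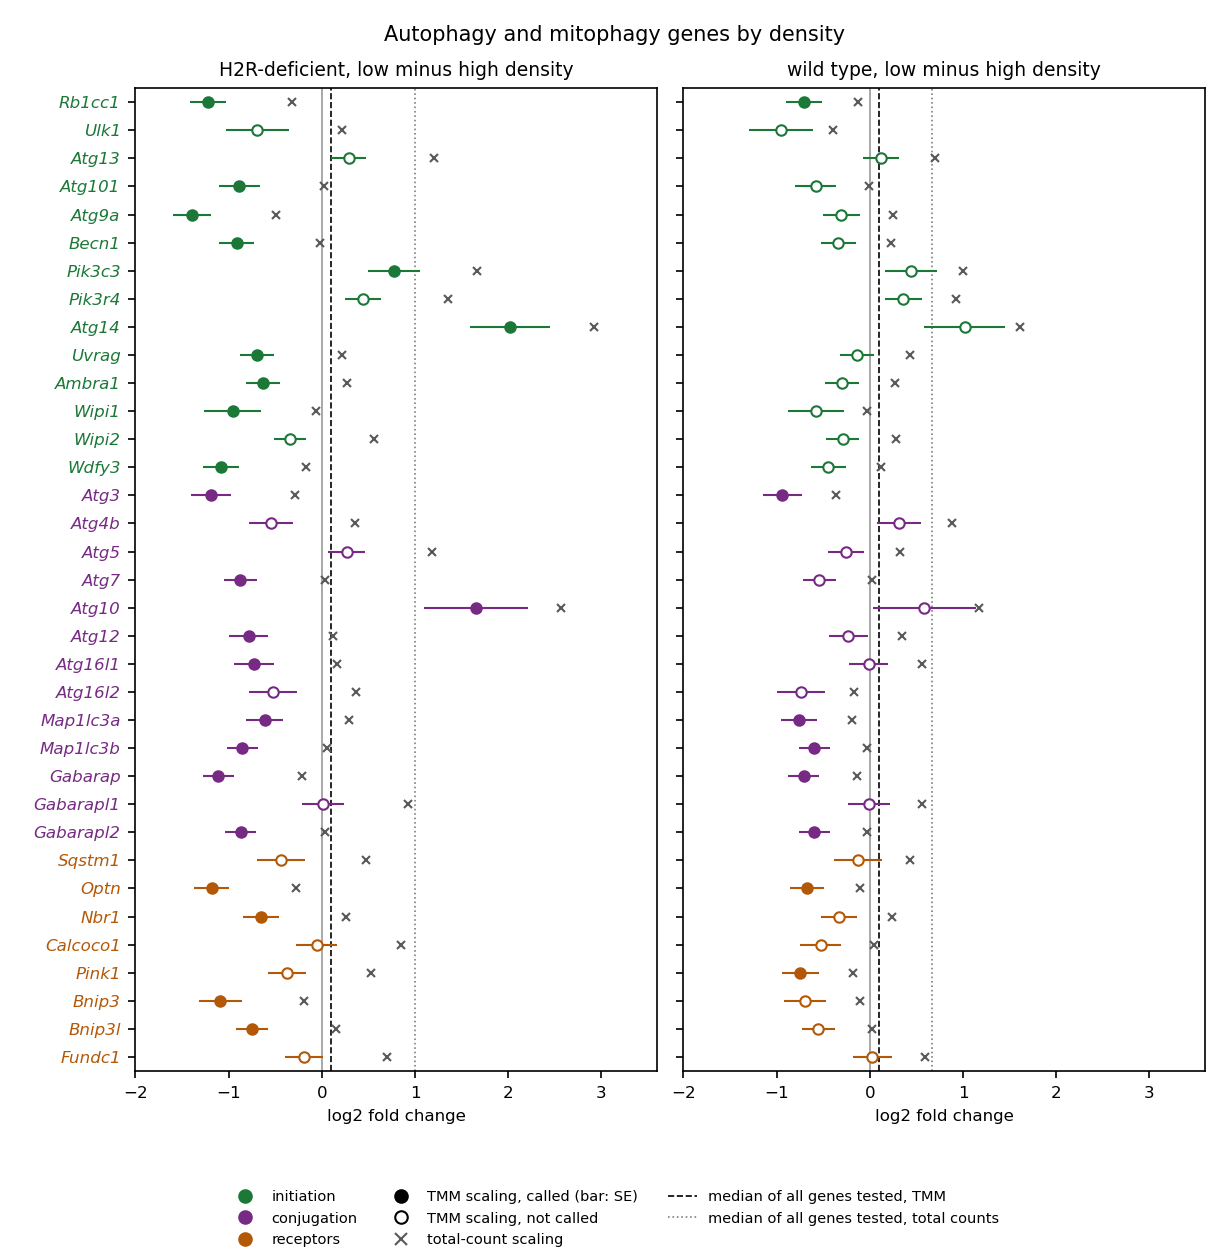
Log2 fold change, low minus high density, of the 35 genes in H2R-deficient (left) and wild-type (right) neutrophils. Circles are TMM values with their standard error, filled where called, crosses are total-count values, and vertical lines mark the median of all 14909 genes under each scaling. By TMM 20 genes on the left and 8 on the right are called lower, and by total counts 1 and 0, with 11 of the 20 changing sign.

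**Figure D2:**
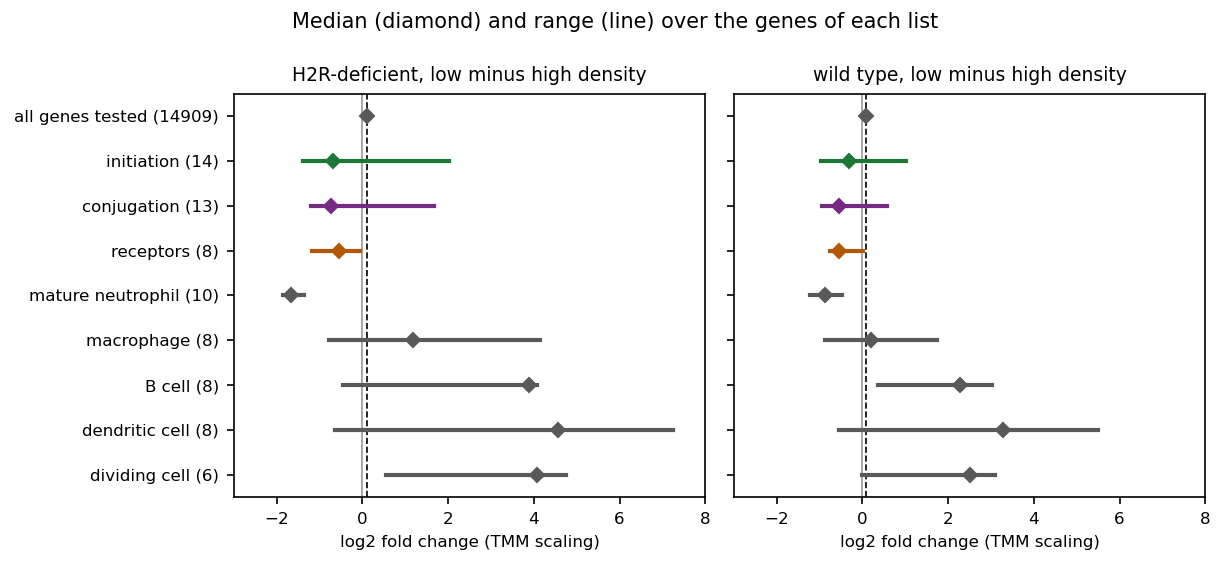
Median (diamond) and range (line) of the log2 fold change, low minus high density by TMM, over the genes of each list, with the number of genes tested in brackets. The 3 autophagy steps have medians of -0.69, -0.73 and -0.54 in H2R-deficient cells, between the mature neutrophil markers at -1.66 and the B cell markers at 3.89. By total counts the 3 medians turn positive and the neutrophil median stays negative.

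The ULK complex couples nutrient sensing by mTORC1 and AMPK to membrane formation, and the class III PI3K complex makes the lipid PI3P on the new membrane. In H2R-deficient cells 8 of the 14 initiation genes fell and 2 rose in low-density relative to high-density cells, beside 23.9% and 30.0% of all genes. In wild-type cells 1 fell and 0 rose, beside 4.15% and 8.51% of all genes, with 5 at an unadjusted p under 0.05. The median log2 difference of the 14 was -0.69 in H2R-deficient and -0.30 in wild-type cells by TMM, and 0.22 and 0.26 by total counts.

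Atg101, an ATG13-stabilising subunit and the ULK member with the most transcripts per length, had 13.6 and 11.3 CPM (over TMM-scaled library sizes, as all CPM of single genes below) in H2R-deficient low-density libraries and 26.7 and 19.4 in H2R-deficient high-density libraries. It had 11.8 and 14.1 CPM in wild-type low-density and 21.2 and 17.5 in wild-type high-density libraries. Low-density values stood below high-density values in both genotypes with no overlap, and Atg101 was called lower in H2R-deficient cells (-0.89 ± 0.22, adjusted p = 0.00866) and not in wild-type cells (-0.58 ± 0.22, adjusted p = 0.105). Its total-count differences were 0.02 in H2R-deficient and -0.01 in wild-type cells. Rb1cc1, which encodes the scaffold FIP200, fell by 1.22 ± 0.20 on the log2 scale in H2R-deficient (adjusted p = 0.00112) and by 0.71 ± 0.20 in wild-type cells (adjusted p = 0.0446), with total-count differences of -0.32 in H2R-deficient and -0.13 in wild-type cells. Ulk1, the kinase itself, had 38.9 and 27.7 CPM in H2R-deficient low-density and 66.3 and 41.2 in H2R-deficient high-density libraries, against 27.7 and 39.1 in wild-type low-density and 82.9 and 46.8 in wild-type high-density libraries. Low-density values were again below high-density values of the same genotype without overlap, but libraries of 1 group differed in TPM by 1.61-fold in H2R-deficient low-density, 1.69-fold in H2R-deficient high-density, 1.24-fold in wild-type low-density and 1.76-fold in wild-type high-density cells, and neither difference was called (-0.69 ± 0.34 in H2R-deficient and -0.96 ± 0.34 in wild-type cells, adjusted p = 0.114 and 0.0897). DESeq2 called Ulk1 lower in wild-type cells (-1.04, adjusted p = 0.0261), 1 of 13 members it called lower there, beside 9.56% of all genes. Atg13, the adaptor of the kinase, was the exception in this complex, with log2 differences of 0.29 in H2R-deficient and 0.12 in wild-type cells that were not called (adjusted p = 0.218 and 0.681). By total counts it rose by 1.20 in H2R-deficient (adjusted p = 0.00155) and by 0.70 in wild-type cells (adjusted p = 0.0421).

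A ratio between members within a library is free of the scaling. There were 111 and 91.2 Atg13 transcripts per 100 Rb1cc1 transcripts in H2R-deficient low-density libraries and 35.2 and 35.9 in H2R-deficient high-density libraries, and 68.1 and 71.0 in wild-type low-density and 35.4 and 43.9 in wild-type high-density libraries. Both low-density groups thus stood above both high-density groups, and the H2R-deficient low-density libraries were highest. These ratios were chosen after their values were seen and carry no test.

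Atg9a encodes a transmembrane protein of the core machinery, carried on vesicles that seed the membrane. It had 43.9 and 49.8 CPM in H2R-deficient low-density libraries and 125 and 122 in H2R-deficient high-density libraries. It had 64.7 and 92.1 CPM in wild-type low-density libraries and 99.9 and 94.0 in wild-type high-density libraries. The H2R-deficient groups lay far apart, whereas the wild-type groups came within a few CPM of each other. Atg9a fell in H2R-deficient low-density cells by 1.39 ± 0.20 on the log2 scale (adjusted p = 0.000698), at percentile 6.63 of all genes tested, and it was the only member also called lower by total counts, by 0.49 (adjusted p = 0.0400). In wild-type cells the difference was -0.31 ± 0.20 (adjusted p = 0.302), and 0.25 by total counts.

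Within the class III PI3K complex, Becn1 (Beclin 1), its most abundant member, had 89.7 and 113 CPM in H2R-deficient low-density and 178 and 204 in H2R-deficient high-density libraries, against 125 and 148 in wild-type low-density and 163 and 182 in wild-type high-density libraries. The low-density groups were the lower ones in both genotypes, and Becn1 fell in H2R-deficient cells by 0.91 ± 0.19 on the log2 scale (adjusted p = 0.00350), with -0.34 ± 0.19 and no call in wild-type cells (adjusted p = 0.237). By total counts the difference was -0.02 in H2R-deficient and 0.23 in wild-type cells. Uvrag, the subunit of the complex that also acts on endosomes, and Ambra1, which links the complex to ULK1 and ubiquitin ligases, fell in H2R-deficient cells as well (-0.69 for Uvrag and -0.63 for Ambra1), and both were positive by total counts (0.22 for Uvrag and 0.27 for Ambra1).

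The other subunits had positive differences in both genotypes. Atg14, which directs the complex to the site where autophagosomes form, had 118 and 105 counts in H2R-deficient low-density libraries and 13 and 15 in H2R-deficient high-density libraries, against 55 and 32 in wild-type low-density and 18 and 11 in wild-type high-density libraries. Every low-density library was above every high-density library. Atg14 rose in H2R-deficient low-density cells by 2.02 ± 0.43 on the log2 scale (adjusted p = 0.00400), at percentile 82.0 of all genes tested, and by 2.92 by total counts. In wild-type cells the difference was 1.02 ± 0.43 by TMM (adjusted p = 0.136), and it was called by total counts (1.61, adjusted p = 0.0232). Pik3c3, the lipid kinase VPS34, had 11.9 and 12.0 CPM in H2R-deficient low-density and 8.29 and 5.68 in H2R-deficient high-density libraries, against 8.42 and 12.1 in wild-type low-density and 8.83 and 6.25 in wild-type high-density libraries. The H2R-deficient groups did not overlap and the wild-type groups did, and Pik3c3 rose in H2R-deficient cells by 0.77 ± 0.28 on the log2 scale (adjusted p = 0.0398), with 0.44 ± 0.28 in wild-type cells (adjusted p = 0.290). DESeq2 did not call Pik3c3 (adjusted p = 0.0611), and its call was lost without either H2R-deficient low-density library (adjusted p = 0.113 and 0.116) or the second high-density one (adjusted p = 0.218). Pik3r4, its regulatory subunit VPS15, differed by 0.44 ± 0.19 in H2R-deficient and 0.36 ± 0.19 in wild-type cells without a call by TMM (adjusted p = 0.0813 and 0.222), and rose by total counts, by 1.35 in H2R-deficient and 0.93 in wild-type cells.

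The make-up of the complex in transcripts differed with density accordingly. Per 100 Becn1 transcripts there were 20.9 and 16.9 of Pik3c3 in H2R-deficient low-density libraries, 7.37 and 4.41 in H2R-deficient high-density, 10.6 and 12.9 in wild-type low-density and 8.57 and 5.45 in wild-type high-density libraries. Per 100 Uvrag transcripts there were 13.7 and 16.2 of Atg14 in H2R-deficient low-density, 2.17 and 2.37 in H2R-deficient high-density, 8.57 and 4.62 in wild-type low-density and 4.19 and 1.95 in wild-type high-density libraries. ATG14 and UVRAG are alternative partners of Beclin 1, and Uvrag stayed the more abundant transcript in every library.

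Among the genes that read PI3P, Wdfy3 (ALFY, a large scaffold for aggregate clearance) had 226 and 177 CPM in H2R-deficient low-density and 429 and 422 in H2R-deficient high-density libraries, against 213 and 244 in wild-type low-density and 289 and 334 in wild-type high-density libraries. Both low-density groups were below their high-density counterparts, and Wdfy3 was called lower in H2R-deficient cells (-1.08 ± 0.19, adjusted p = 0.00163) but not in wild-type cells (-0.45 ± 0.19, adjusted p = 0.132). Its total-count differences were -0.16 in H2R-deficient and 0.12 in wild-type cells. Wipi1 fell in H2R-deficient cells (-0.96 by TMM, -0.06 by total counts) and Wipi2, which recruits the ATG16L1 complex, was not called by TMM (-0.34 in H2R-deficient and -0.29 in wild-type cells). Wipi2 rose by total counts in H2R-deficient cells (0.56, adjusted p = 0.0319) and was not called in wild-type cells (0.28, adjusted p = 0.271).

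**Figure D3:**
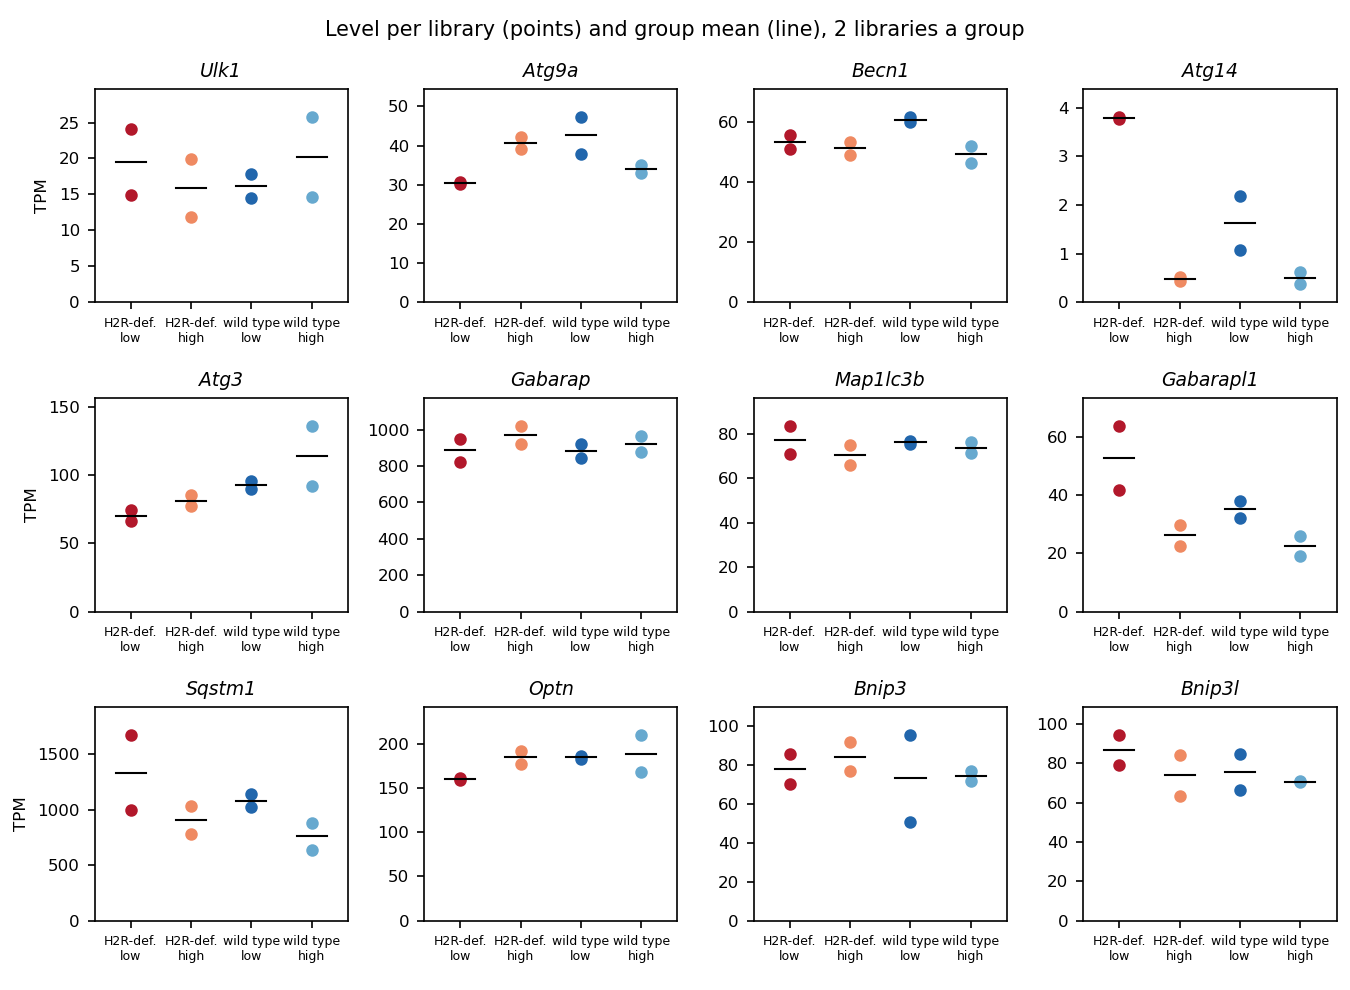
Level of 12 of the genes in each library in TPM (within-library transcript shares corrected for length, on the total-count scale), with points for libraries and lines for group means. Atg14 is near 3.8 TPM in both H2R-deficient low-density libraries and under 1 TPM in all high-density libraries, whereas Gabarap and Map1lc3b differ by no more than 1.24-fold and 1.26-fold over all 8 libraries.

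Conjugation genes were called mainly in the lower direction by TMM. In H2R-deficient cells 8 of 13 fell and 1 rose in low-density relative to high-density cells, beside 23.9% and 30.0% of all genes. In wild-type cells 5 fell and 0 rose, beside 4.15% and 8.51% of all genes, with 7 at an unadjusted p under 0.05. The median log2 difference of the 13 was -0.73 in H2R-deficient and -0.54 in wild-type cells by TMM, and 0.17 and 0.03 by total counts. By total counts none of the 13 was called lower, beside 2.61% of all genes in H2R-deficient and 0.832% in wild-type cells.

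Atg3, the E2-like enzyme that transfers ATG8 proteins to lipid and the most abundant enzyme here, had 58.7 and 59.7 CPM in H2R-deficient low-density libraries and 138 and 131 in H2R-deficient high-density libraries. It had 84.1 and 102 CPM in wild-type low-density libraries and 213 and 144 in wild-type high-density libraries. Low-density groups were lower in both genotypes without overlap, and Atg3 fell by 1.19 ± 0.22 in H2R-deficient and 0.94 ± 0.21 in wild-type cells on the log2 scale (adjusted p = 0.00189 in H2R-deficient and 0.0271 in wild-type cells). The sign held by total counts without a call (-0.28 in H2R-deficient and -0.37 in wild-type cells). Atg7, the E1-like enzyme of both systems, fell in H2R-deficient cells by 0.87 (0.03 by total counts). So did Atg12, the ubiquitin-like protein joined to ATG5, by 0.78, and Atg16l1, which places that conjugate on membrane, by 0.73, though both were positive by total counts (0.12 for Atg12 and 0.17 for Atg16l1). Atg5 itself was not called by TMM (0.27 in H2R-deficient and -0.25 in wild-type cells) and rose in H2R-deficient cells by total counts (1.18, adjusted p = 0.00212). There were 37.7 and 29.7 Atg5 transcripts per 100 of Atg3 in H2R-deficient low-density libraries, 13.0 and 11.6 in H2R-deficient high-density, 20.5 and 15.1 in wild-type low-density and 9.38 and 13.3 in wild-type high-density libraries. Low-density libraries were above high-density ones in both genotypes.

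Atg10, the E2-like enzyme that joins ATG12 to ATG5, was the rarest member. It had 55 and 28 counts in H2R-deficient low-density and 7 and 6 in H2R-deficient high-density libraries, against 24 and 16 in wild-type low-density and 12 and 6 in wild-type high-density libraries. All low-density raw counts exceeded all high-density ones, but by TMM the wild-type groups overlapped and only the H2R-deficient groups stood apart. Atg10 rose in H2R-deficient cells (1.66 ± 0.56 by TMM, adjusted p = 0.0314, and 2.57 by total counts), with 0.59 ± 0.55 and no call in wild-type cells (adjusted p = 0.478). DESeq2 did not call Atg10 (adjusted p = 0.0806), and its call was lost without the first H2R-deficient low-density library or either high-density one (adjusted p = 0.182, 0.105 and 0.112). The protease gene Atg4b and Atg16l2, a paralogue of Atg16l1, were not called by TMM in either genotype. Atg4b rose by total counts in wild-type cells (0.885, adjusted p = 0.0259) and was not called in H2R-deficient cells (0.354, adjusted p = 0.261).

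Of the 5 ATG8 genes, 4 fell in both genotypes by TMM: Map1lc3a and Map1lc3b, which encode LC3 proteins, and Gabarap and Gabarapl2 of the GABARAP branch. These 4 were not called by total counts in either genotype, and no share of all genes is given for a fall in both. Gabarap was by far the most abundant ATG8 transcript, with 81.6% to 82.2% of ATG8 transcripts in H2R-deficient low-density, 86.1% to 86.3% in H2R-deficient high-density, 83.4% to 84.2% in wild-type low-density and 85.3% to 85.8% in wild-type high-density libraries. Gabarap had 435 and 434 CPM in H2R-deficient low-density and 964 and 914 in H2R-deficient high-density libraries, against 503 and 524 in wild-type low-density and 800 and 878 in wild-type high-density libraries. The groups were widely separated in both genotypes, with falls on the log2 scale of 1.11 ± 0.17 in H2R-deficient (adjusted p = 0.000791) and 0.71 ± 0.16 in wild-type cells (adjusted p = 0.0286). By total counts the differences were -0.21 in H2R-deficient and -0.14 in wild-type cells, without a call. Map1lc3b had 156 and 152 CPM in H2R-deficient low-density and 290 and 267 in H2R-deficient high-density libraries, against 167 and 195 in wild-type low-density and 266 and 282 in wild-type high-density libraries. Both low-density groups lay below both high-density groups. Map1lc3b fell by 0.85 ± 0.17 in H2R-deficient (adjusted p = 0.00263) and 0.60 ± 0.17 in wild-type cells (adjusted p = 0.0457) by TMM, with 0.05 in H2R-deficient and -0.03 in wild-type cells by total counts.

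Gabarapl1 was the ATG8 gene that did not follow. It had 32.0 and 24.0 CPM in H2R-deficient low-density and 30.9 and 24.6 in H2R-deficient high-density libraries, against 22.8 and 21.9 in wild-type low-density and 19.0 and 25.8 in wild-type high-density libraries. The groups overlapped in both genotypes by TMM (0.01 ± 0.22 in H2R-deficient and -0.01 ± 0.23 in wild-type cells, adjusted p = 0.963 and 0.988), and Gabarapl1 rose by total counts in H2R-deficient cells (0.93, adjusted p = 0.0131). Per 100 Gabarap transcripts there were 6.74 and 5.07 of Gabarapl1 in H2R-deficient low-density, 2.93 and 2.47 in H2R-deficient high-density, 4.14 and 3.83 in wild-type low-density and 2.18 and 2.69 in wild-type high-density libraries. Low-density libraries had the larger ratio in both genotypes.

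**Figure D4:**
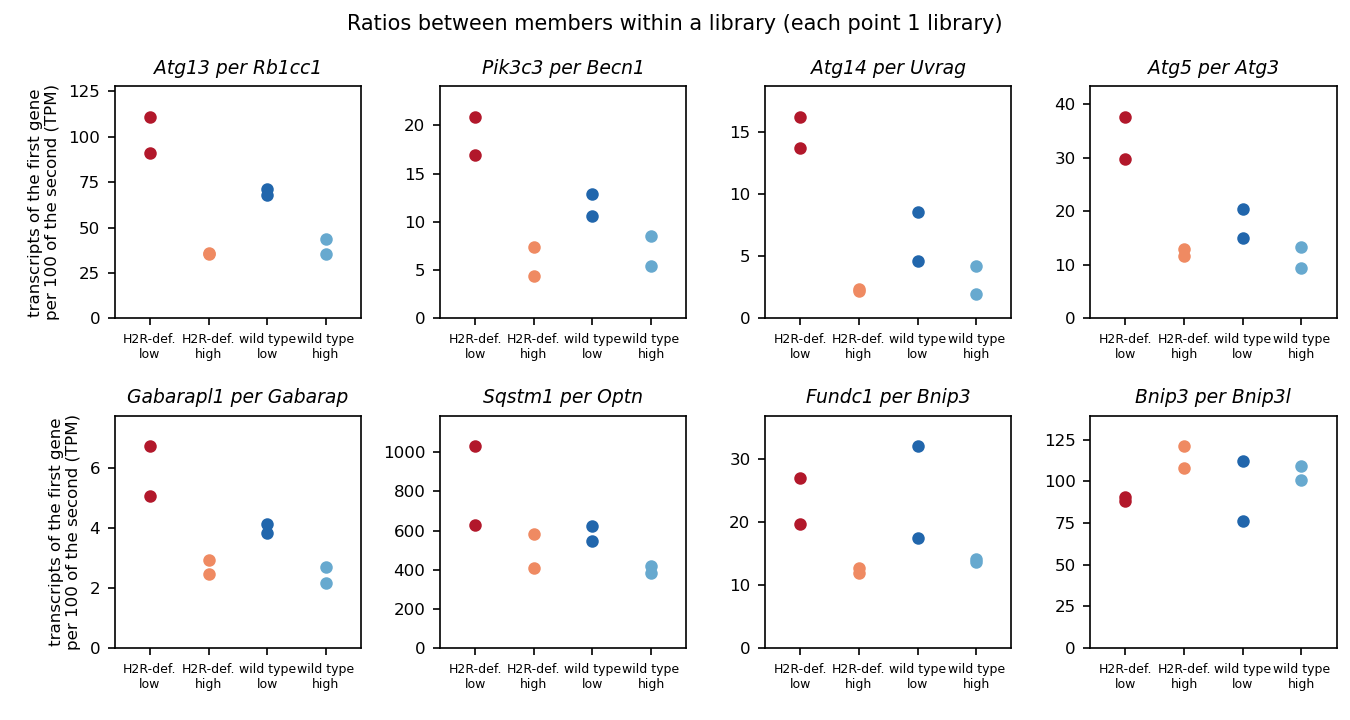
Transcripts of 1 member per 100 of another within each library (ratio of TPM), which library scaling does not change. For Atg13 per Rb1cc1, Pik3c3 per Becn1, Atg14 per Uvrag, Atg5 per Atg3 and Gabarapl1 per Gabarap, both low-density libraries of a genotype lie above both of its high-density libraries, whereas Bnip3 per Bnip3l has overlapping wild-type groups.

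Some promoter windows of these genes hold the palindrome CACGTG, the E-box read by the TFEB and TFE3 family of lysosomal and autophagy regulators. RefSeq windows on GRCm38.p6 covered 250 bases before to 50 after a gene's start and were found for 27 of the 35 members. CACGTG, which reads the same on both strands, was in 5 of the 27 (18.5%), namely Atg3, Atg5, Atg7, Atg14 and Bnip3, and in 8.09% of all genes with a window. The longer TCACGTGA was in 1 of 27 (3.70%, Atg3) and in 1.12% of all genes. ACGTG, the core of the hypoxia element, searched on both strands and contained in CACGTG, was in 12 of 27 (44.4%) and in 21.8% of all genes. GTAAACA, a forkhead motif searched on both strands, was in 0 of the 27 member windows and in 4.05% of all genes. These counts describe letters, not binding. The stretches below, which lie upstream of the RefSeq start, are shown because they carry the palindrome, in capitals, in 3 conjugation genes and 1 mitophagy receptor gene. They are written along the gene's strand, and that of Atg7 lies before an alternative start inside the counted gene.
Atg3, chr16:45158715-45158783, plus strand: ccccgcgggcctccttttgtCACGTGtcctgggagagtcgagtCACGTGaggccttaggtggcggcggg
Atg5, chr10:44268305-44268338, plus strand: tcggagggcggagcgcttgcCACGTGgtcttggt
Atg7, chr6:114670944-114670989, plus strand: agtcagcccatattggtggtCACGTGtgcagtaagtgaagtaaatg
Bnip3, chr7:138909589-138909634, minus strand: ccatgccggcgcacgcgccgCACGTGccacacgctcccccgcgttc
Atg3 carries the palindrome at 2 places and Atg5 within 14 bases of its start. The genes that share it did not share 1 response: by TMM Atg3, Atg7 and Bnip3 fell in H2R-deficient low-density cells, Atg14 rose and Atg5 was not called.

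Receptor transcripts summed to 2112 and 1395 TPM in H2R-deficient low-density, 1453 and 1174 in H2R-deficient high-density, 1474 and 1536 in wild-type low-density and 1040 and 1311 in wild-type high-density libraries, and Sqstm1 made up most of them. By TMM 4 of the 8 receptor genes fell and 0 rose in H2R-deficient low-density cells, beside 23.9% and 30.0% of all genes. Those 4 were the ones at an unadjusted p under 0.05. In wild-type cells 2 fell and 0 rose, beside 4.15% and 8.51% of all genes, with 5 at an unadjusted p under 0.05. DESeq2 and limma-voom called none of the 8 higher in either genotype. Of all 14909 genes they called 4118 and 4342 higher in H2R-deficient and 1291 and 970 in wild-type cells. The median log2 difference of the 8 was -0.54 in both genotypes by TMM, and 0.37 in H2R-deficient and 0.03 in wild-type cells by total counts.

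Sqstm1 (p62), the receptor for ubiquitinated cargo and itself degraded by autophagy, had 1392 and 956 CPM in H2R-deficient low-density libraries and 1771 and 1411 in H2R-deficient high-density libraries. It had 1011 and 1297 CPM in wild-type low-density libraries and 1065 and 1461 in wild-type high-density libraries. The H2R-deficient groups came close to touching and the wild-type groups overlapped, and neither difference was called (-0.44 ± 0.26 in H2R-deficient and -0.13 ± 0.26 in wild-type cells, adjusted p = 0.174 and 0.747). By total counts the differences were 0.48 in H2R-deficient and 0.43 in wild-type cells, also without a call. In length-corrected terms Sqstm1 had 1669 and 998 TPM in H2R-deficient low-density and 1029 and 782 in H2R-deficient high-density libraries, against 1019 and 1144 in wild-type low-density and 640 and 884 in wild-type high-density libraries. The first H2R-deficient low-density library was the highest of the 8.

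Optn (optineurin), a receptor for ubiquitinated bacteria and damaged mitochondria, had 151 and 170 CPM in H2R-deficient low-density and 341 and 388 in H2R-deficient high-density libraries, against 207 and 232 in wild-type low-density and 313 and 388 in wild-type high-density libraries. Low-density groups were lower in both genotypes without overlap, and Optn fell on the log2 scale by 1.18 ± 0.19 in H2R-deficient (adjusted p = 0.00101) and 0.68 ± 0.18 in wild-type cells (adjusted p = 0.0435). Its total-count differences were also negative, at -0.28 in H2R-deficient and -0.11 in wild-type cells, without a call. Nbr1, which acts with p62, fell in H2R-deficient cells by 0.65 by TMM and was positive by total counts (0.26). Calcoco1, a receptor for the endoplasmic reticulum and Golgi, was not called by TMM (-0.06 in H2R-deficient and -0.53 in wild-type cells). Calcoco1 rose by total counts in H2R-deficient cells (0.85, adjusted p = 0.0109) and was not called in wild-type cells (0.04, adjusted p = 0.906).

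The mitophagy receptors Bnip3 and Bnip3l (NIX) sit in the outer mitochondrial membrane and bind ATG8 proteins directly. Bnip3 had 48.2 and 45.2 CPM in H2R-deficient low-density libraries and 107 and 93.1 in H2R-deficient high-density libraries, against 63.6 and 38.8 in wild-type low-density and 80.2 and 85.8 in wild-type high-density libraries. Low-density groups were lower without overlap, and Bnip3 fell in H2R-deficient cells by 1.09 ± 0.23 on the log2 scale (adjusted p = 0.00386), with -0.70 ± 0.23 in wild-type cells (adjusted p = 0.0720). DESeq2 called Bnip3 lower in wild-type cells too (-0.76, adjusted p = 0.0236). Its total-count differences were -0.19 in H2R-deficient and -0.11 in wild-type cells. Bnip3l had 90.4 and 87.4 CPM in H2R-deficient low-density and 167 and 131 in H2R-deficient high-density libraries, against 96.8 and 86.9 in wild-type low-density and 136 and 134 in wild-type high-density libraries. It fell in H2R-deficient cells by 0.75 ± 0.18 by TMM (adjusted p = 0.00657), missed the call in wild-type cells (-0.55 ± 0.18, adjusted p = 0.0660), and was positive by total counts (0.16 in H2R-deficient and 0.02 in wild-type cells).

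Pink1, the kinase that marks depolarised mitochondria, had 22.0 and 23.9 CPM in H2R-deficient low-density and 32.3 and 27.3 in H2R-deficient high-density libraries, against 24.9 and 31.2 in wild-type low-density and 52.6 and 41.3 in wild-type high-density libraries. The wild-type high-density libraries were the highest. Pink1 fell in wild-type low-density cells by 0.75 ± 0.20 on the log2 scale (adjusted p = 0.0424) and was not called in H2R-deficient cells (-0.38 ± 0.20, adjusted p = 0.140). By total counts the wild-type difference was -0.18 without a call and the H2R-deficient one 0.53 with a call in the higher direction (adjusted p = 0.0472). Fundc1, a receptor linked to hypoxia, was near 0 by TMM (-0.19 in H2R-deficient and 0.03 in wild-type cells). Fundc1 rose by total counts in H2R-deficient cells (0.70, adjusted p = 0.0180) and was not called in wild-type cells (0.59, adjusted p = 0.0557). Per 100 Bnip3 transcripts there were 19.8 and 27.0 of Fundc1 in H2R-deficient low-density, 12.8 and 12.0 in H2R-deficient high-density, 17.5 and 32.1 in wild-type low-density and 14.2 and 13.7 in wild-type high-density libraries, so both low-density groups were above both high-density groups.

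Between genotypes at the same density, no member was called by edgeR with the filter on low counts. At low density 0 members rose and 0 fell in H2R-deficient relative to wild-type cells, as for all genes (0% and 0%). At an unadjusted p under 0.05 there were 7 members, without an all-gene share to set beside them. The lowest adjusted p was that of Atg9a (-0.74 ± 0.20, adjusted p = 0.116), whose 43.9 and 49.8 CPM in H2R-deficient low-density libraries were below the 64.7 and 92.1 in wild-type low-density libraries. Atg14 was the only one of those 7 on the higher side, with 3.27 and 3.71 CPM in H2R-deficient and 2.23 and 1.25 in wild-type low-density libraries (adjusted p = 0.198), and Becn1, Atg3, Atg7, Atg16l1 and Optn were negative (-0.43 to -0.66). All 7 kept their sign by total counts, which moved the median of all genes only from 0.05 to 0.32. That shift is too small to turn these differences, so it is no test of them. DESeq2 called 1 of the 35 members lower, Atg9a (-0.73, adjusted p = 0.0230), beside 3.37% of all genes. The fit without a filter on low counts also called Atg9a (-0.71, adjusted p = 0.0247), beside 2.60% of all genes, and limma-voom called 0 members. A single member of 35 is near these shares. The median of all members was -0.11, against 0.05 for all genes. The mature neutrophil markers were also on the lower side in H2R-deficient low-density cells by TMM, with a median of -0.91 (-1.41 to -0.51). The difference of Atg9a lay within that range. The part of cell types in these differences was not tested.

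At high density 0 members rose and 0 fell in H2R-deficient relative to wild-type cells, where 0.0201% and 0.188% of all genes did. At an unadjusted p under 0.05 there were 6 members, again without an all-gene share. Atg4b, a protease that primes ATG8 proteins, had 40.6 and 37.2 CPM in H2R-deficient high-density libraries, against 16.7 and 26.8 in wild-type high-density libraries. The groups did not overlap, and the difference of 0.84 ± 0.24 missed the call in edgeR (adjusted p = 0.130), while DESeq2 called it (0.83, adjusted p = 0.0310), the 1 member it called higher beside 1.86% of all genes. Pink1 was on the lower side in H2R-deficient cells (-0.66 ± 0.20, adjusted p = 0.151), and called lower without a filter on low counts (-0.69, adjusted p = 0.0483), where 2.72% of all genes were. That fit also called Atg4b higher (0.81, adjusted p = 0.0136), beside 1.18% of all genes. The other 4 were Ambra1, Wdfy3 and Atg12 with positive and Calcoco1 with negative differences. All 6 kept their sign by total counts, which moved the median of all genes only from -0.05 to -0.12. That shift is too small to turn these differences, so it is no test of them. Limma-voom called 0 members. The 8 macrophage markers were all on the lower side in H2R-deficient high-density cells by TMM, with a median of -1.81 and 1 called, and their part in these differences was not tested.

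The test of whether the density effect differed between genotypes called 0 members higher and 0 lower in H2R-deficient than wild-type cells. The same held for all genes (0% and 0%). At an unadjusted p under 0.05 there were 4 members, also without an all-gene share. Atg9a came nearest, with a difference of effects of -1.09 ± 0.28 (adjusted p = 0.0946), and -0.75 by total counts (adjusted p = 0.119). DESeq2 called it (-1.06, adjusted p = 0.0203), as did the fit without a filter (-1.03, adjusted p = 0.0227), and limma-voom called 0 members. These single calls stand beside 2.40% of all genes called lower by DESeq2 and 1.10% without a filter. Wdfy3, Atg4b and Atg16l1 were the other 3, with differences of -0.63, -0.86 and -0.71 (adjusted p = 0.212, 0.188 and 0.209). By total counts 0 members were called, where 4.17% of all genes were called higher and 0.0872% lower. For the mature neutrophil markers the median difference of effects was -0.83 by TMM (-1.37 to -0.24), a range that held the value of Atg9a. Their part in these differences was not tested. The genotype comparisons share libraries with the density comparisons.

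Other genes of the pathway were counted in the same way. Of 61 further genes, 59 were tested. In H2R-deficient low-density relative to high-density cells 26 fell and 14 rose by TMM (2 and 25 by total counts). Of all genes 23.9% fell and 30.0% rose there (2.61% and 51.6% by total counts). In wild-type cells 7 of the further genes fell and 4 rose (0 and 19 by total counts). Of all genes 4.15% fell and 8.51% rose there (0.832% and 32.3% by total counts). Among transcription factors of autophagy genes, Foxo1 had 21.9 and 19.8 CPM in H2R-deficient low-density and 2.39 and 4.15 in H2R-deficient high-density libraries, against 14.0 and 9.23 in wild-type low-density and 3.12 and 2.65 in wild-type high-density libraries. Low-density values were higher in both genotypes, and Foxo1 rose by 2.68 ± 0.31 in H2R-deficient (adjusted p = 0.000306) and 2.00 ± 0.31 in wild-type cells (adjusted p = 0.00939), and also by total counts. Tfe3, an E-box factor, fell in H2R-deficient cells (-1.25), and Nfe2l2 (NRF2) and Hif1a fell in both genotypes by TMM (Nfe2l2 -1.35 in H2R-deficient and -0.80 in wild-type cells, Hif1a -1.11 in H2R-deficient and -0.71 in wild-type cells), all with a negative sign and no call by total counts. Epas1 rose in wild-type cells under both scalings (2.60 by TMM, adjusted p = 0.0418), on few counts. It had 25 and 85 counts in wild-type low-density and 4 and 8 in wild-type high-density libraries. In H2R-deficient cells Epas1 was higher at low density too, with 2.63 and 1.34 CPM against 0.53 and 0.51 in high-density libraries. Of 19 other core genes, 7 fell and 2 rose in H2R-deficient cells, and 1 fell and 1 rose in wild-type cells. Rubcn, which encodes Rubicon, an inhibitor of the UVRAG complex, had 20.3 and 23.8 CPM in H2R-deficient low-density and 3.68 and 3.32 in H2R-deficient high-density libraries, against 13.1 and 6.22 in wild-type low-density and 3.24 and 2.60 in wild-type high-density libraries. It rose in both genotypes under both scalings (2.65 ± 0.35 in H2R-deficient and 1.72 ± 0.35 in wild-type cells by TMM, adjusted p = 0.000475 and 0.0199). Among nutrient sensors, Prkaa1, a catalytic subunit of AMPK, and Sesn2, a stress-induced inhibitor of mTORC1, fell in H2R-deficient cells under both scalings (-1.56 for Prkaa1 and -1.57 for Sesn2 by TMM, -0.66 and -0.67 by total counts). In wild-type cells neither was called by TMM (-0.31 for Prkaa1 and 0.15 for Sesn2, adjusted p = 0.231 and 0.687), and by total counts Sesn2 rose (0.72, adjusted p = 0.0273) and Prkaa1 was not called (0.27, adjusted p = 0.230). The difference of effects between genotypes was not called by TMM for Prkaa1 (-1.25) or Sesn2 (-1.72, adjusted p = 0.0906 for both), and by total counts it was called for Sesn2 (-1.39, adjusted p = 0.0407). Mlst8, a subunit of mTOR complexes, rose under both scalings (1.94 in H2R-deficient and 1.62 in wild-type cells by TMM). Among other receptors, Retreg1 and Tax1bp1 fell in both genotypes by TMM, with negative total-count differences that were not called, and Phb2 and Usp30 rose in H2R-deficient cells under both scalings.

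Several members share sequence or position with other genes, and whether reads were counted by strand is not stated in those sources. Exons of 12 members overlap those of another gene: the overlap is 43.9% of the exons of Becn1 (Cntd1, opposite strand, at most 37 counts in a library), 31.8% of Atg9a (Gm29253, same strand, at most 1 count) and 28.3% of Gabarapl1 (1700101I11Rik, at most 17 counts). Bnip3 has annotated copies at 95% identity or more over 94.2% (AC160336.1, not analysed here) and 32.1% (Gm16439 and Gm9419) of its longest transcript, Bnip3l over 34.7% (Bnip3l-ps) and Gabarapl2 over up to 20.9% (Gm5829 and Gm6051). The counts of these 3 genes are uncertain to that extent. In transcripts per length 3 members averaged over 100 TPM (Sqstm1, Gabarap and Optn), 23 between 10 and 100 TPM and 9 below 10 TPM, and libraries of 1 group differed by a median of 0.167 to 0.318 on the log2 scale over the members.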

How the data were processed

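RNA of the 8 libraries was sequenced by the authors, who deposited raw read counts per gene, not normalized, with exon lengths, as featureCounts output per the headers of the files. STAR 2.5.2b, Trimmomatic 0.36, Subread 1.5.2, bcl2fastq 2.17.1.14 and GRCm38 are named in the submitters' processing notes. Neither the strand setting, the annotation release nor the handling of multiply mapping reads is given in these sources. Overlapping genes and near-identical copies could thus gain or lose counts. Symbols were matched by identifier to GENCODE M21. Genes were kept with filterByExpr by group (14909), scaled by TMM and fitted in edgeR 4.0.16 (R 4.3.3) with glmQLFit (robust) and 1 mean per group over all 8 libraries (4 residual degrees of freedom). Benjamini-Hochberg adjustment ran over all genes tested in each of 5 contrasts, and an adjusted p under 0.05 was called. The standard error is the log2 fold change over the square root of the F statistic. TPM was computed from counts and deposited lengths. Total-count scaling, DESeq2 size factors, upper quartiles, no filter, DESeq2 1.42.0, limma-voom 3.58.1, a fit of the compared libraries alone, a replicate block and leaving out each library were the alternatives. The test was tried on simulated data with changes planted in a small share of genes, equally in both directions. Its outcome is not given here. Many more genes were called in the H2R-deficient density comparison, so that trial does not bear on the choice of scaling. All members are named. The detail given follows a rule of calls, abundance and role, and up to 4 genes with the lowest adjusted p are named per other list and contrast. The members, lists, motifs and rules were chosen with earlier results of these data known. With 2 libraries a group, an exact test of 1 gene cannot pass the threshold, so p-values come only from models over all genes.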

Additional observations from a re-analysis of the deposited data

How the results depend on the processing

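In H2R-deficient cells, low against high density, 23 members were called by TMM, 12 by total counts and 14 to 24 when 1 library was left out, the lowest without the first H2R-deficient low-density library. By total counts 11 falls turned positive: Atg101 (0.0227), Uvrag (0.218), Ambra1 (0.269), Atg7 (0.0313), Atg12 (0.123), Atg16l1 (0.168), Map1lc3a (0.291), Map1lc3b (0.0531), Gabarapl2 (0.0314), Nbr1 (0.263) and Bnip3l (0.155), by the construction of the scaling, which moved all genes. In wild-type cells 8 members were called by TMM, 5 by total counts, 2 by upper-quartile factors, 13 by DESeq2, 0 with the 4 libraries compared fitted alone and 0 to 5 when 1 library was left out. That count was 0 without either wild-type low-density library or without wild-type high-density replicate 2, 5 without wild-type high-density replicate 4, and 2 or 3 without an H2R-deficient library. The genotype comparisons called 0 members, but DESeq2 called 1 at low and 1 at high density and no filter 1 and 2. For the difference of effects both called 1. Calls over all genes in wild-type cells moved with these settings too. Of 14909 genes, 1269 rose and 619 fell by TMM, 4817 and 124 by total counts, and 1482 and 447 by upper-quartile factors. DESeq2 called 1291 higher and 1426 lower, and the 4 libraries fitted alone gave 443 and 165 of 13731 genes. Except where a value or construction is given, the cause was not tested.

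The other scalings and tools gave 22 or 23 calls in H2R-deficient cells and 8 to 10 in wild-type cells. The labels do not say that replicate numbers pair the libraries, and each genotype has only 2 pairs. Over the genes tested, deviations of same-numbered libraries from their group means (log2 CPM) correlated at 0.326 in H2R-deficient and 0.155 in wild-type cells. With a replicate block 24 members (3 higher and 21 lower) were called in H2R-deficient cells, 9 (all lower) in wild-type cells and 0 for the difference of effects. Of all 14909 genes that fit called 4749 higher and 3701 lower in H2R-deficient cells and 1648 and 972 in wild-type cells. For the difference of effects it called 12 higher and 16 lower. Depth limits Atg10 and Atg14 most, with as few as 6 and 11 counts in a library. Where a group is left with 1 library, that library is assumed to vary like the others.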
